A study of Mus musculus with 12 samples.

Results

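The genes described here encode the translation initiation and elongation factors, the proteins that bring ribosomes onto messenger RNA and move them along it. They were chosen by symbol alone: every gene whose symbol begins with Eif1 to Eif6, or with Eef1 or Eef2, leaving out the eIF2 kinases (Eif2ak) and symbols marked as pseudogenes. This gave 63 of the 45796 genes in the table. RNA was measured in gamma delta T cells positive for the Vg4 and Vd4 receptor chains, taken from the lymph nodes that drain the skin of C57BL/6 mice. The 4 groups of 3 libraries each were wild type with sham cream, wild type with imiquimod cream, NF-kB1 deficient with sham cream, and NF-kB1 deficient with imiquimod cream. The drug imiquimod activates Toll-like receptors and inflames mouse skin, and NF-kB1 is the precursor of the p50 subunit of the NF-kB transcription factors. The labels say neither which part of Nfkb1 is changed nor in which cells, and they do not tie the 3 replicates of a group to separate mice. The p-values therefore reflect variation among these libraries, which may be technical only. That variation was estimated mostly over many genes together and little from each gene's own libraries.

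Translation begins when eIF2 delivers the initiator tRNA to the small ribosomal subunit, eIF3 and the eIF1 proteins hold that subunit open, and the eIF4 proteins bind the cap of the messenger RNA and unwind its leader. After the large subunit joins, eEF1A brings each aminoacyl-tRNA and eEF2 moves the ribosome on by a codon. Resting T cells keep protein synthesis low and raise it when they are activated and divide.

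Depth was low. Expression is given as the normalized value, the authors' normalized read count on a linear scale. The libraries read a single tag near the 3' end of each transcript, so values of different genes can be set side by side without a correction for length. Steps between low values imply between 20507 and 69454 reads on genes per library, and the factors that could be tested together took between 240 and 870 read equivalents per library. The largest step that made most low values whole was taken as 1 read, and a smaller step would give more reads. Log2 values at or below 0 were set to 0 on this scale. In 5 libraries 1 read was worth less than 1, so a gene listed at 0 there can hide 1 read. In wild-type sham replicate 2, where a read was worth 0.488, it can hide more than 1. All 3 NF-kB1-deficient imiquimod libraries were among these 5, so this limit is uneven between groups. Nfkb1 stood between 1.24 and 6.71 in wild-type sham, between 0 and 21.0 in wild-type imiquimod and between 1.09 and 8.82 in both deficient groups. Whether the 3' tag lies in the changed part of the gene is not known, so these values cannot check the genotype. Of 15 markers listed for gamma delta T cells, 12 had a line in the table and 6 of these were at 0 in every library, among them the segments Tcrg-V4 and Trdv4 and the constant gene Trdc. The receptor chains named by the labels can therefore not be checked here. The delta chain locus Tcrd stood between 40.3 and 76.8 in 9 libraries and between 14.1 and 30.5 in the wild-type imiquimod libraries, and the beta chain locus Tcrb between 57.4 and 103 in all 12 libraries. Other markers of the list did not follow Tcrd. The gamma constant gene Tcrg-C2 stood at 10.5, 17.0 and 28.3 in wild-type sham and at 12.3, 22.3 and 18.8 in wild-type imiquimod, and Cd3d and Cd247 also overlapped there.

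Promoter sequence is shown first, for the 2 factors called in a comparison, Eif3a and Eef1a1, and for the other tested factors that share a motif with Eif3a. RefSeq start sites (GRCm38.p6) were matched for 48 of the 63 genes, and the window ran from 250 bases before the start to 50 after it. The E-box CACGTG, which reads the same on both strands and which MYC and related factors can bind, lay in the window of 12 of these 48 genes (25.0%), against 8.09% of all 27025 genes in the promoter table. Among genes abundant enough to be tested for expression it lay in 7 of 21 factors (33.3%), against 13.2% of 1262 genes. Eif3a, the largest subunit of eIF3, has its E-box just inside the transcript, and its window from chr19:60790664-60790913 (minus strand, positions -220 to 30 from the start) is printed with the E-box in capitals, followed by 30 bases around the E-box of the other 6 tested factors that have one.
Eif3a: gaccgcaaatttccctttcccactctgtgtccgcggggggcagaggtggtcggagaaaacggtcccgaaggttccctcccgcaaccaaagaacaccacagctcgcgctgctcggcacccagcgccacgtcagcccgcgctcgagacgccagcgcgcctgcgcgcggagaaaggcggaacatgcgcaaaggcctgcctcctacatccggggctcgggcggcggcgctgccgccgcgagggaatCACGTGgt
Eif3k (chr7:28981915-28981944, minus strand): ctggaaggaaatCACGTGgtagacaaaaaa
Eif3f (chr7:108934335-108934364, plus strand): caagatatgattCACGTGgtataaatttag
Eef2 (chr10:81176576-81176605, plus strand): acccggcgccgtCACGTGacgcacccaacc
Eif5a (chr11:69921443-69921472, minus strand): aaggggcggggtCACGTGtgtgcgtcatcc
Eif4g1 (chr16:20672661-20672690, plus strand): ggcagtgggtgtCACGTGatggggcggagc
Eif4h (chr5:134639488-134639517, minus strand): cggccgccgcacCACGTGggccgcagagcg

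In the 3 eIF3 genes among these, the E-box was preceded by T and followed by GT. That longer word, chosen after the sequences were seen and searched on both strands, lay in 3 of 21 tested factors (14.3%) against 1.35% of the 1262 tested genes with a promoter. The ETS motif CCGGAAG, searched on both strands, lay in 16 of 48 factors (33.3%) against 9.93% of all genes, but among tested genes the shares were 23.8% and 21.3%. A match is a description of the sequence and not a bound site.

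The kappaB consensus, the motif of the NF-kB factors, lay on either strand in the window of 2 of 48 factors (4.17%), Eef1a1 and Eef2k, against 5.14% of all genes. The window of Eef1a1, the gene of elongation factor eEF1A, is printed from chr9:78481725-78481974 (minus strand, the 250 bases before the start) with the match, read on the opposite strand, in capitals.
Eef1a1: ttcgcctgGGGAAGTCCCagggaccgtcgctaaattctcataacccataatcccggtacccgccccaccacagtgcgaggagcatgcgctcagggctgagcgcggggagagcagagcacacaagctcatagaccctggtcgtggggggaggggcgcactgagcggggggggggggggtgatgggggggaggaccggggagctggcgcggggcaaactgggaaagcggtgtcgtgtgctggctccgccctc

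Pyrimidine runs at the start are a known feature of many translation factor messenger RNAs. A run of at least 7 pyrimidines opening with C within 10 bases of the RefSeq start was found in 12 of 48 factors (25.0%) against 14.1% of all genes, but in 3 of 21 tested factors (14.3%) against 17.8% of all tested genes. A C at the start itself followed by at least 4 pyrimidines was found in 3 of 48 factors (6.25%) against 3.01% of all genes, and in 1 of 21 tested factors (4.76%) against 3.88% of tested genes.

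Together the 63 genes took a larger share of the library under imiquimod than under sham in both genotypes. Their summed value was 1.22%, 1.46% and 1.04% of the library in wild-type sham and 2.05%, 1.74% and 2.10% in wild-type imiquimod. In the NF-kB1-deficient libraries it was 1.22%, 1.04% and 1.11% with sham and 1.48%, 1.46% and 1.56% with imiquimod. All 3 wild-type imiquimod libraries were above every other library, and in both genotypes imiquimod and sham libraries did not overlap. Without Eef1a1, the most abundant factor, the ranges were 0.953% to 1.30% and 1.50% to 1.88% in wild type and 0.870% to 1.06% and 1.21% to 1.35% in deficient libraries. A share over chosen genes was given no test. In sorted bulk cells, more cells of a kind and more RNA per cell cannot be told apart.

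**Figure D1:**
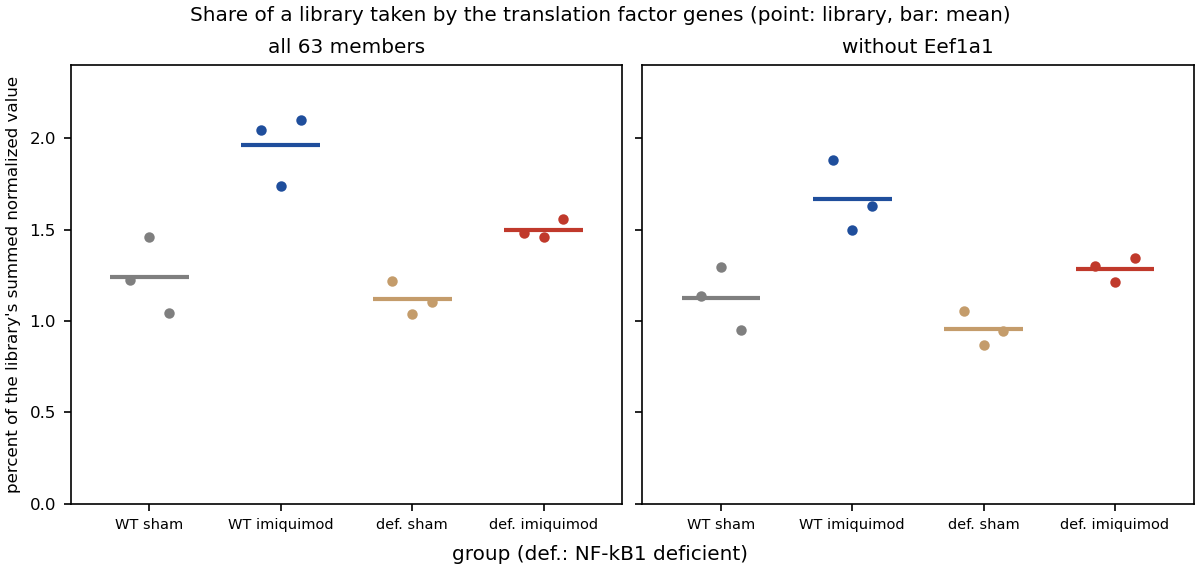
Share of each library's summed normalized value (percent, y axis) taken by all 63 translation factor genes (left) and by these without Eef1a1 (right), in the 4 groups on the x axis. Points are libraries and bars are group means, and the 3 wild-type imiquimod libraries, at 1.74% to 2.10% on the left, lie above all others.

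Of the 63 genes, 57 were above 0 in at least 1 library and 11 in all 12. The 6 listed at 0 throughout were Eif4ebp1, Eif4e1b, Eif3j2, Eif2c5, Eif5a2 and Eef1a2. Genes were tested where their mean over the 12 libraries was at least 5, which kept 25 factors among 1571 genes. The weakest that passed were Eif4g1 (mean 6.96), Eif1ad (5.85) and Eif4h (5.67), and the strongest left out were Eif1b (4.51), Eif1ax (4.48) and Eif4a1 (4.37). A gene high in a single group can pass on that group alone, so counts over the 25 describe the tested genes and not the whole family. Eif3k did so, with a mean of 22.5 in wild-type imiquimod. Its means were 3.92 in wild-type sham, 6.35 in deficient sham and 3.39 in deficient imiquimod. Eif4a3 and Eif1ad also had their highest mean in wild-type imiquimod. The most abundant were Eef1a1 with a mean of 69.8, Eef2 with 46.7, Eef1b2 with 41.9, Eif4g2 with 34.3 and Eif3a with 32.4.

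**Figure D2:**
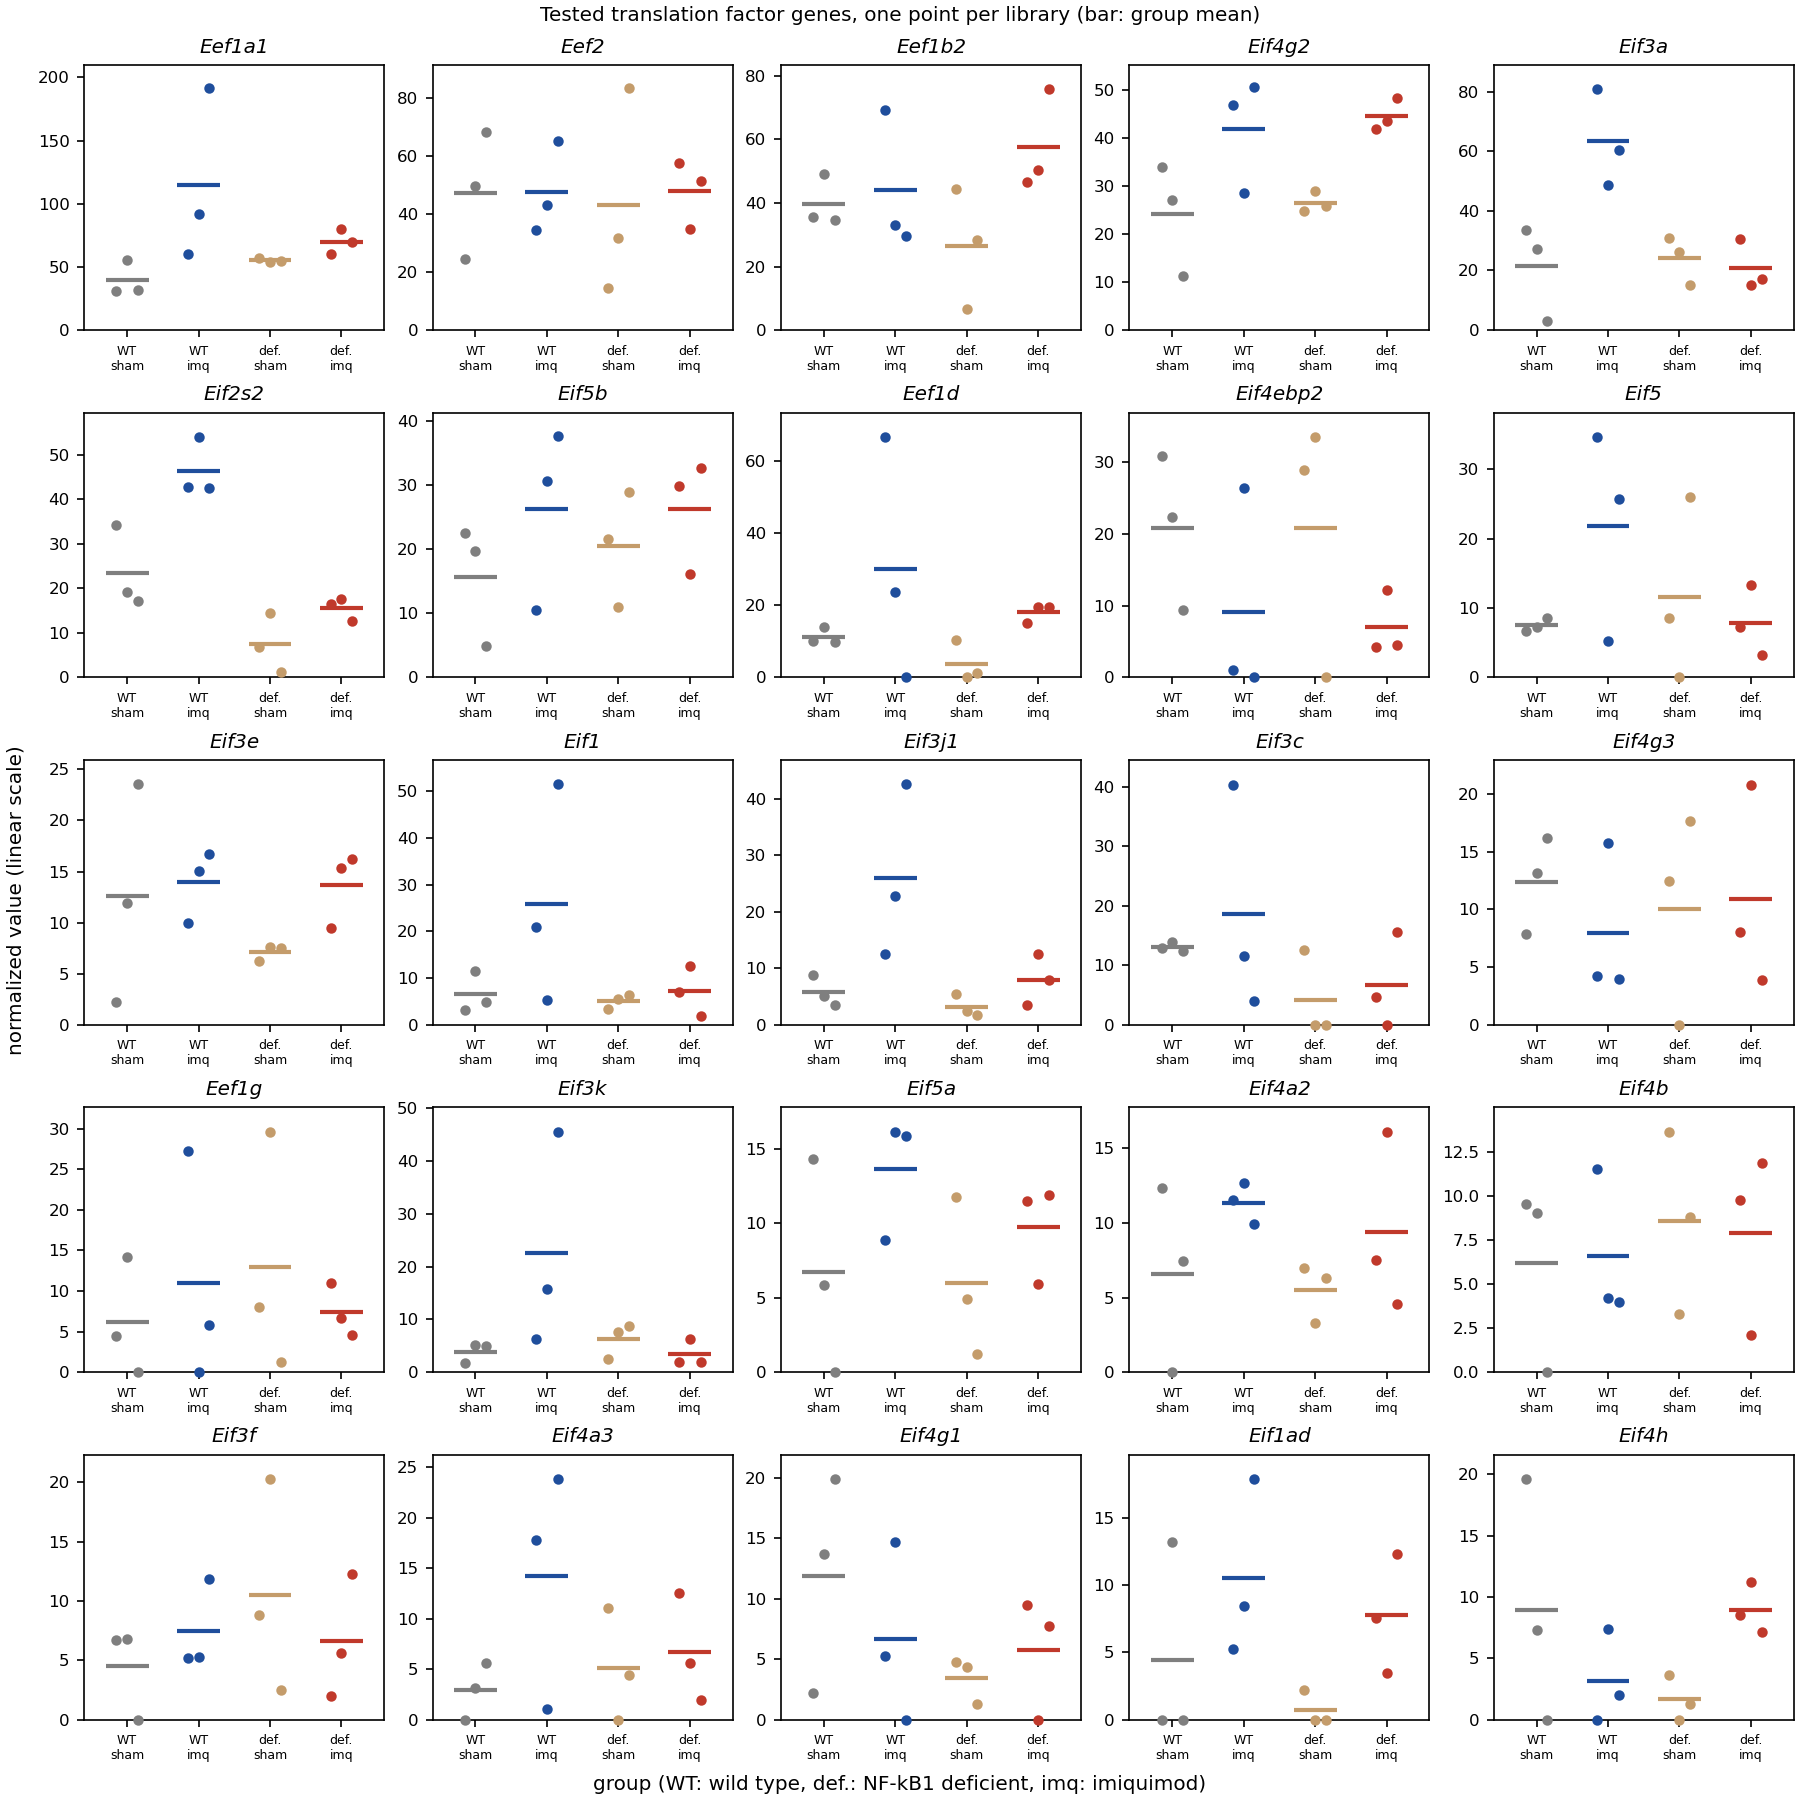
Normalized value (y axis, linear scale) of the 25 tested factors in the 4 groups (x axis), ordered by mean from the upper left. Points are libraries and bars are group means, and Eef1a1 and Eif3a have all 3 wild-type imiquimod libraries above all 3 wild-type sham libraries.

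The first comparison asked how the factors respond to imiquimod in wild-type cells. Eef1a1 and Eif3a were called higher, and no factor was called lower. These were 2 of 25 tested factors, against 1.65% of all 1571 tested genes called higher and 3.25% called in either direction (limma, adjusted p under 0.05). The log2 fold change, taken on log2(normalized value + 1), was positive for 19 of the 25 factors and for 48.1% of all tested genes, with a median of 0.87 against -0.07. Of the 57 factors above 0 anywhere, 38 had a positive value when no filter was set. The libraries did not overlap for 5 factors, all higher under imiquimod, against 10.7% of tested genes not overlapping in that direction. Leaving out wild-type sham replicate 3 brought the median of the factors to 0.41, with 16 of 25 positive and 0 called.

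Eef1a1 encodes eEF1A, the factor that carries aminoacyl-tRNA to the ribosome (Entrez 13627, chromosome 9, 78478453 to 78481724, minus strand). Its normalized values were 30.7, 55.2 and 32.0 in wild-type sham and 60.6, 92.1 and 192 in wild-type imiquimod. Every imiquimod library was above every sham library, and replicate 3 of imiquimod stood far above the others. That replicate was the shallowest library, at 20507 implied reads, and its value rested on about 96.8 read equivalents. Summed normalized values also ran higher in wild-type imiquimod, from 36846 to 40618, against at most 34855 in any other group. The log2 fold change was 1.41 ± 0.39 (SE, limma adjusted p = 0.0224), from 39.3 ± 13.8 to 115 ± 68.4 (mean ± SD, n = 3 each). In NF-kB1-deficient cells Eef1a1 stood at 56.7, 54.0 and 54.5 with sham and at 60.1, 80.3 and 69.5 with imiquimod. These groups did not overlap either, but the log2 fold change of 0.33 ± 0.39 was not called (limma adjusted p = 0.996). The wild-type call was lost without sham replicate 1 (adjusted p = 0.0902), sham replicate 3 (0.101) or imiquimod replicate 3 (0.196, with a log2 fold change of 0.96). It was also lost with only the libraries compared in the fit (adjusted p = 0.0560), with quantile normalization (0.119), without the trend and robust settings (0.286) or without the low-value filter (0.462). Reads of processed copies of this gene could have been assigned to it or taken from it, and its pseudogene line Eef1a1-ps1 is at 0 throughout.

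Eif3a encodes the scaffold subunit of eIF3, the complex that bridges the small ribosomal subunit and the messenger RNA (Entrez 13669, chromosome 19, 60761116 to 60790693, minus strand). It stood at 33.5, 27.3 and 3.11 in wild-type sham and at 80.7, 48.7 and 60.4 in wild-type imiquimod. The groups did not overlap, and the low sham value, replicate 3, rested on about 2.5 read equivalents. Its log2 fold change was 1.99 ± 0.59 (limma adjusted p = 0.0382). In NF-kB1-deficient cells the values were 30.9, 26.3 and 15.1 with sham and 30.5, 15.0 and 17.0 with imiquimod. Here both groups covered the same range, and the change was -0.21 ± 0.59 (adjusted p = 0.996). Without wild-type sham replicate 3 the wild-type change was 1.01 and no longer called (adjusted p = 0.392). Without imiquimod replicate 1 or 3 the adjusted p was 0.125 and 0.0722. The call was also lost with a pseudocount of 0.1 (0.0721), equal totals (0.0631), quantile normalization (0.119), no trend and robust setting (0.231) or no filter (0.462).

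Over all 14 genes of eIF3 the summed normalized value was 84.2, 101 and 91.0 in wild-type sham and 212, 146 and 211 in wild-type imiquimod. In NF-kB1-deficient libraries it was 66.5, 74.1 and 38.2 with sham and 76.8, 70.9 and 91.8 with imiquimod. The 3 wild-type imiquimod libraries were above all 9 others. Of the 6 tested subunits 5 had a positive log2 fold change in wild type, with a median of 1.47, and 3 in deficient cells, with a median of 0.31. These 6 include Eif3k, which passed the filter on its wild-type imiquimod values. Eif3k, a peripheral subunit, had 1.68, 5.13 and 4.97 in wild-type sham and 6.29, 15.8 and 45.6 in wild-type imiquimod. Eif3j1, a loosely bound subunit, went from 8.76, 5.04 and 3.45 to 12.6, 22.8 and 42.6. Neither was called although the libraries did not overlap (1.95 ± 1.10, adjusted p = 0.315, and 1.91 ± 1.05, adjusted p = 0.296). Reads of Eif3j1 and of its near copy Eif3j2, listed at 0, could have been split by the counting. Eif3c, a core subunit, spread widely under imiquimod, at 40.4, 11.6 and 3.96 against 12.9, 13.9 and 12.4 with sham. In deficient cells Eif3c stood at 12.5, 0 and 0 with sham and at 4.76, 0 and 15.6 with imiquimod. Eif3e and Eif3f had overlapping groups in wild type, with log2 fold changes of 0.53 and 1.02. The untested subunits Eif3b, Eif3d, Eif3g, Eif3h, Eif3i, Eif3l and Eif3m reached at most 17.8 in any library. Not all went the same way: Eif3h stood at 5.59, 8.05 and 8.69 in wild-type sham and lower, at 1.05, 3.16 and 0, in wild-type imiquimod, and Eif3m at 0, 1.46 and 7.45 and then at 0 in all 3.

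**Figure D3:**
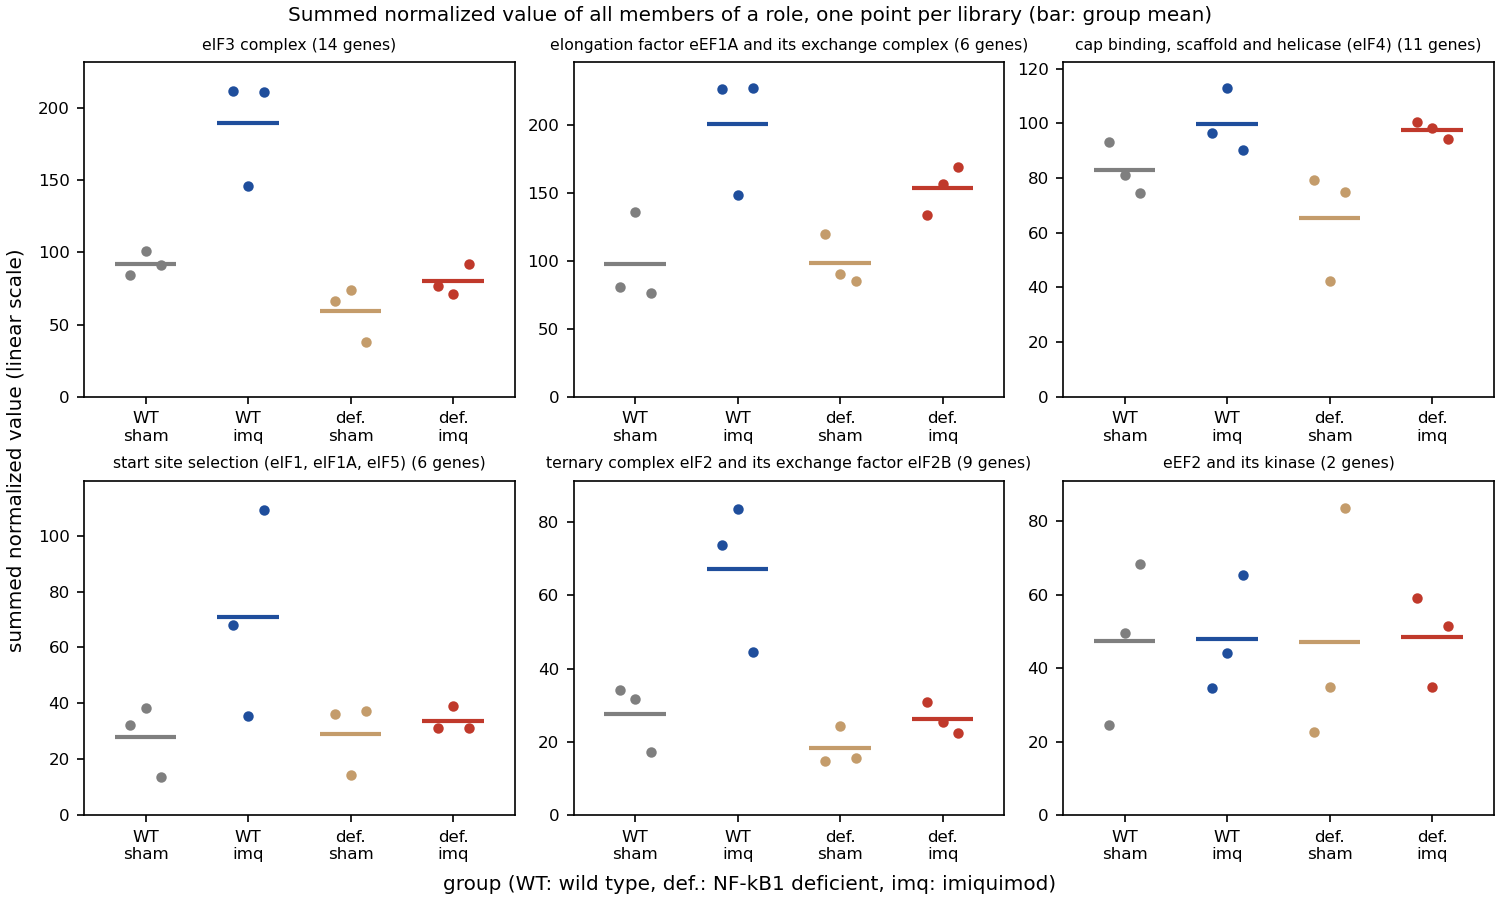
Summed normalized value (y axis, linear scale) of all members of 6 roles in the 4 groups (x axis), with points for libraries and bars for group means. The eIF3 genes sum to 146 to 212 in wild-type imiquimod and to at most 101 elsewhere, and eEF2 with its kinase shows no separation of the groups.

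The eIF2 complex carries the initiator tRNA, and Eif2s2 encodes its beta subunit (Entrez 67204, chromosome 2, 154871410 to 154892906, minus strand). Eif2s2 stood at 34.3, 19.1 and 17.2 in wild-type sham and at 42.8, 54.0 and 42.6 in wild-type imiquimod. In NF-kB1-deficient cells it stood at 6.74, 14.4 and 1.26 with sham and at 16.4, 17.7 and 12.7 with imiquimod. Wild-type imiquimod libraries were above all others, and each deficient group lay wholly below the wild-type group with the same cream. The imiquimod change was 1.01 ± 0.71 in wild type (limma adjusted p = 0.447) and 1.35 ± 0.71 in deficient cells (0.996). Summed with the other eIF2 subunits and the exchange factor eIF2B, 9 genes in all, the values were 34.3, 31.8 and 17.2 in wild-type sham and 73.7, 83.5 and 44.6 in wild-type imiquimod, without overlap. In deficient cells the same sum was 14.8, 24.3 and 15.7 with sham and 30.9, 25.4 and 22.4 with imiquimod. Eif2s3y, the copy of the eIF2 gamma subunit on the Y chromosome, was at 0 in all 6 wild-type libraries. It stood at 4.41, 6.57 and 0 in deficient sham and at 0, 0 and 2.59 in deficient imiquimod. The labels used here do not give the sex of the mice, and this gene was under the filter. Its X-linked partner Eif2s3x was above 0 in only 2 libraries, at 18.9 in wild-type imiquimod replicate 2 and 4.76 in deficient imiquimod replicate 1.

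Factors that select the start codon include eIF1, eIF1A and eIF5. Eif1 stood at 3.17, 11.5 and 4.97 in wild-type sham and at 21.0, 5.26 and 51.5 in wild-type imiquimod, so that 1 imiquimod library lay inside the sham range. Eif5, the GTPase activator of eIF2, had 6.71, 7.23 and 8.61 against 34.6, 5.26 and 25.7, with 1 imiquimod library below all sham libraries. Neither Eif1 (1.51 ± 1.05, adjusted p = 0.444) nor Eif5 (1.10 ± 1.04, adjusted p = 0.591) was called. Eif5b, which joins the ribosomal subunits, stood at 22.5, 19.7 and 4.97 in wild-type sham and at 10.5, 30.5 and 37.6 in wild-type imiquimod. Its deficient libraries had 21.6, 10.9 and 28.9 with sham and 29.8, 16.1 and 32.7 with imiquimod. All 4 groups of Eif5b overlapped, with imiquimod changes of 0.76 ± 0.67 and 0.38 ± 0.67. Eif5a, a factor that relieves stalled ribosomes, had a log2 fold change of 1.59 ± 1.08 in wild type (adjusted p = 0.436).

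The eIF4 genes bind the cap, form its scaffold and unwind the leader. Their sum overlapped between creams in wild type but not in deficient cells. The sum over their 11 genes was 93.2, 81.1 and 74.5 for wild-type sham against 96.6, 113 and 90.1 for wild-type imiquimod. In deficient libraries they summed to 79.2, 42.2 and 74.9 with sham and to 101, 98.2 and 94.1 with imiquimod. Of 6 tested genes 3 had a positive log2 fold change in wild type and 5 in deficient cells. Only Eif4g2 and Eif4h of these did not overlap between creams in deficient cells, and none in wild type. Eif4g2, a relative of the scaffold eIF4G that does not bind eIF4E, was the most abundant, at 33.9, 27.0 and 11.2 in wild-type sham and at 46.8, 28.4 and 50.5 in wild-type imiquimod. With deficiency it stood at 24.7, 29.0 and 25.8 with sham and at 41.9, 43.5 and 48.2 with imiquimod, without overlap. Its imiquimod change was 0.87 ± 0.52 in wild type (adjusted p = 0.346) and 0.73 ± 0.52 in deficient cells (0.996). The cap-binding protein gene Eif4e was under the filter, with at most 14.9 in any library, as was the helicase gene Eif4a1, with at most 19.8.

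Eif4ebp2 encodes a repressor that keeps eIF4E from the scaffold (Entrez 13688, chromosome 10, 61428491 to 61452790, minus strand). Its values were 30.7, 22.3 and 9.32 in wild-type sham and 1.05, 26.3 and 0 in wild-type imiquimod. Replicates 1 and 3 of imiquimod were below all sham libraries and replicate 2 lay among them. The log2 fold change was -2.36 ± 1.10 (limma adjusted p = 0.195). In deficient cells the values were 28.8, 33.4 and 0 with sham and 4.26, 12.2 and 4.54 with imiquimod, again overlapping. It was the only one of the 25 factors with a negative change at an unadjusted p under 0.05 in wild type, against 10.9% of all tested genes. The related Eif4ebp1 was at 0 in every library.

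Eef2, which moves the ribosome along the messenger RNA, was among the most abundant factors and did not separate the groups (Entrez 13629, chromosome 10, 81176631 to 81182509, plus strand). It stood at 24.6, 49.6 and 68.3 in wild-type sham and at 34.6, 43.2 and 65.4 in wild-type imiquimod. In deficient cells it stood at 14.7, 31.8 and 83.7 with sham and at 57.6, 34.9 and 51.6 with imiquimod. The wild-type change was 0.07 ± 0.47, with a 95% interval reaching 0.931 to either side, and it turned to -0.08 with equal totals and to -0.30 with quantile normalization. Its kinase gene Eef2k, an inhibitor of the factor, was above 0 in 4 libraries and reached 8.09.

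The exchange factor that recharges eEF1A is built from the products of Eef1b2, Eef1d and Eef1g. Eef1b2 stood at 35.5, 49.2 and 34.5 in wild-type sham and at 69.1, 33.2 and 29.7 in wild-type imiquimod, with overlap and a log2 fold change of 0.06 ± 0.50. Eef1d stood at 10.1, 13.9 and 9.94 in wild-type sham and at 66.6, 23.7 and 0 in wild-type imiquimod, a spread that takes in the whole sham range, with a change of -0.04 ± 1.05. The direction of neither is settled, since Eef1b2 was at -0.23 and Eef1d at 0.05 with quantile normalization. Eef1g likewise ranged from 0 to 27.3 in wild-type imiquimod.

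As a list, markers of dividing cells were higher under imiquimod in wild type and overlapped between creams in deficient cells. The sum over the 15 genes of that list was 44.3, 30.2 and 21.1 for wild-type sham against 395, 231 and 602 for wild-type imiquimod. In wild type 5 of its 9 tested genes were called higher, against 1.65% of all tested genes. In deficient libraries the 15 genes summed to 37.9, 42.7 and 88.2 with sham and to 119, 61.3 and 88.8 with imiquimod. There 8 of the 9 tested genes were positive, with a median of 0.88, and none was called. Of all tested genes 56.0% were positive there, with a median of 0.14. Wild-type imiquimod replicate 3 was the highest library both for this list and for Eef1a1, while Eif3a was highest in replicate 1 of that group. For plasma cells the sum ran from 0 to 6.21 with sham and from 6.93 to 23.8 with imiquimod in wild type, and Jchain, Mzb1, Igkc, Derl3 and Tnfrsf17 were at 0 in both wild-type groups. Prdm1 of this list was at 0 in wild-type sham and at 6.81, 8.42 and 6.93 with imiquimod, Xbp1 went from 0, 2.93 and 2.48 to 14.7, 6.32 and 0, and Irf4 from 0 to 2.27, 6.32 and 0. In deficient cells the plasma cell sum was 0 in every sham library and 2.25, 4.89 and 21.7 with imiquimod. Neutrophil markers were at 0 in every library, and B cell markers reached at most 11.6. Erythroid markers summed to 50.6 in deficient imiquimod replicate 3 and to at most 4.76 elsewhere. Keratinocyte markers (13.0) and macrophage, monocyte and dendritic cell markers (16.1) were highest in wild-type sham replicate 3. Alpha beta T cell markers reached 17.3, in deficient sham replicate 1. Of 4 tested gamma delta T cell markers, 1 was called lower under imiquimod in wild type (limma adjusted p = 0.00905), against 25 of all 1571 tested genes. The part of cell division or of other cells in the changes of Eef1a1 and Eif3a was not tested.

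The next comparison asked for the response to imiquimod in NF-kB1-deficient cells. No factor was called, nor was any of the 1571 tested genes (0% called by limma, with 53 genes, or 3.37%, at an unadjusted p under 0.05, among them 2 factors). Log2 fold changes were positive for 19 of 25 factors and 56.0% of all tested genes, with medians of 0.56 and 0.14. Without NF-kB1-deficient sham replicate 2 the median of the factors was 0.32. Without a filter 37 of the 57 factors above 0 were positive. The libraries did not overlap for 7 factors, all higher under imiquimod, against 6.11% of tested genes in that direction: Eef1a1, Eef1b2, Eef1d, Eif1ad, Eif3e, Eif4g2 and Eif4h.

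Eef1b2 and Eef1d, both of the exchange factor, had the lowest p-values among the factors in this comparison. Eef1b2 (Entrez 55949, chromosome 1, 63176831 to 63180486, plus strand) stood at 44.5, 6.57 and 28.3 with sham and at 46.4, 50.4 and 75.9 with imiquimod. The highest sham library lay just under the lowest imiquimod library. Its log2 fold change was 1.41 ± 0.50 (limma adjusted p = 0.956), and 0.65 without sham replicate 2. Eef1d (Entrez 66656, chromosome 15, 75894796 to 75909784, minus strand) stood at 10.3, 0 and 1.26 with sham and at 15.2, 19.6 and 19.5 with imiquimod. All imiquimod libraries were above all sham libraries, and the change was 2.69 ± 1.05 (limma adjusted p = 0.964) and ran from 1.91 to 3.66 without single libraries. Eef1g, the third gene of the exchange factor, stood at 8.09, 29.6 and 1.26 with sham and at 11.0, 6.64 and 4.54 with imiquimod, with overlap and a change of -0.10 ± 1.16. Over the 6 genes grouped with eEF1A and its exchange complex the sum was 120, 90.1 and 85.4 with sham and 134, 157 and 169 with imiquimod. The 6 include Eef1e1, which is not one of the exchange factor genes named above and reached at most 3.90. In wild type the same sum was 80.8, 136 and 76.4 with sham and 227, 149 and 227 with imiquimod. Sham and imiquimod did not overlap in this sum in either genotype, but the sum includes Eef1a1. In wild type Eef1a1 was the only tested gene of the 6 without overlap. In deficient cells Eef1a1, Eef1b2 and Eef1d did not overlap. Eif3e, an eIF3 subunit, had 6.25, 7.66 and 7.55 with sham and 9.51, 15.3 and 16.2 with imiquimod, with a change of 0.82 ± 0.92. Eif4h, a helper of the helicase, had 3.68, 0 and 1.26 with sham and 8.51, 11.2 and 7.14 with imiquimod, a change of 2.16 ± 1.28.

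**Figure D4:**
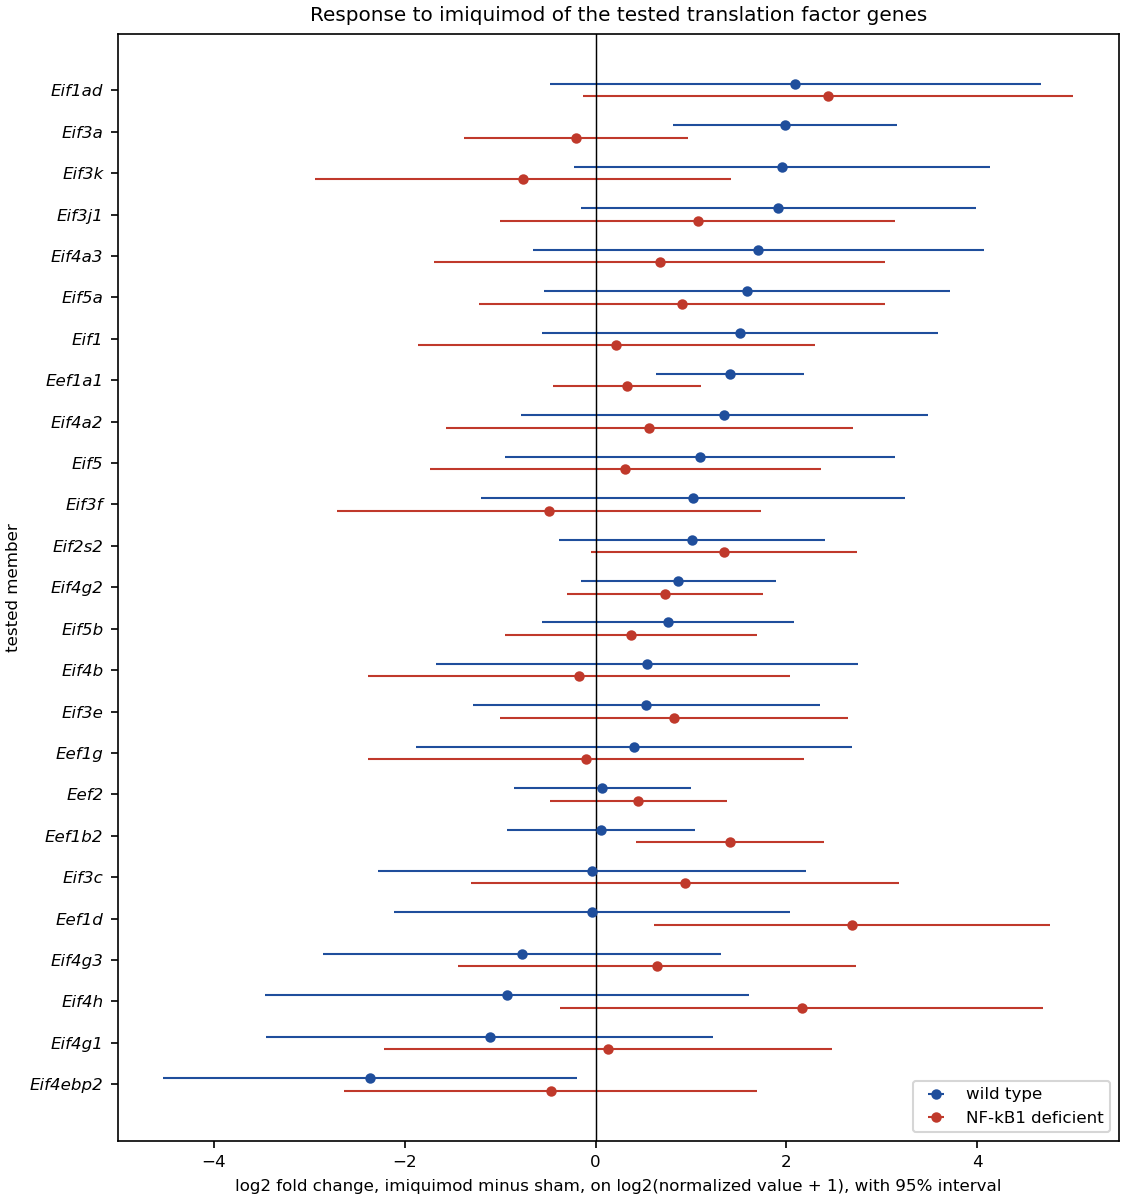
Log2 fold change from sham to imiquimod on log2(normalized value + 1) (x axis) of the 25 tested factors (y axis), in wild type (blue) and NF-kB1-deficient cells (red), with 95% intervals from limma. In each genotype 19 of 25 points lie to the right of 0, and the intervals that leave out 0 are those of Eef1a1, Eif3a and Eif4ebp2 in wild type and of Eef1b2 and Eef1d in deficient cells.

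Genotypes were compared under each cream. With sham no factor was called and 0% of tested genes were (limma), while 6.11% of genes and 2 factors, Eif2s2 and Eif3c, were at an unadjusted p under 0.05. Among the factors 11 of 25 log2 fold changes, deficient minus wild type, were positive, against 48.6% of all tested genes, with medians of -0.31 and -0.02. The median of the factors was 0.05 without NF-kB1-deficient sham replicate 2. Eif2s2 was the single factor whose libraries did not overlap, lower in deficient cells, against 4.65% of tested genes in that direction. Its change was -1.86 ± 0.71 (limma adjusted p = 0.809). Eif3c stood at 12.9, 13.9 and 12.4 in wild type and at 12.5, 0 and 0 in deficient cells. That difference, -2.56 ± 1.14, rests on the 2 deficient libraries at 0 (limma adjusted p = 0.809).

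With imiquimod no factor was called, against 1.78% of tested genes in either direction (limma). Deficient minus wild type was negative for 15 of 25 factors, with a median of -0.31, while 53.7% of all tested genes were positive, with a median of 0.13. The 4 factors without overlap, Eif3a, Eif3k, Eif3j1 and Eif2s2, were all lower in deficient cells, against 10.3% of tested genes in that direction. This count depended on the scaling: with equal totals Eif2s2 and Eif3a were lower and Eif4h higher, and with quantile normalization Eif2s2, Eif3a and Eif3k were lower and Eif4g2 and Eif4h higher. Eif3a had the lowest p-value, at -1.59 ± 0.59 (limma adjusted p = 0.163). Eif2s2 followed at -1.52 ± 0.71 (adjusted p = 0.288). For Eif3k the deficient values were 1.94, 6.29 and 1.95, with a change of -2.17 ± 1.10 (adjusted p = 0.349). For Eif3j1 they were 3.51, 12.6 and 7.91, the highest just under the lowest wild-type value, with a change of -1.56 ± 1.05 (adjusted p = 0.528). All 6 tested eIF3 subunits were negative, from -0.03 for Eif3e to -2.17 for Eif3k, with a median of -1.58. Eif3k passed the filter on its wild-type imiquimod values, so its place in this count is not independent of them. The untested subunits went both ways: Eif3h had means of 1.40 in wild type and 5.20 in deficient cells, and Eif3l 8.04 and 0.50. The list of dividing cells was lower in the same deficient libraries, and its part in the changes of the factors was not tested.

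Whether the imiquimod response itself differed between genotypes was tested as an interaction. No factor was called, against 0.446% of tested genes (limma). Eif3a had the lowest p-value among the factors, at -2.19 ± 0.84 for the deficient minus the wild-type response (adjusted p = 0.290). Without wild-type sham replicate 3 this value was -1.22. Eef1a1 was at -1.08 ± 0.55 (adjusted p = 0.477), with a 95% interval from -2.17 to 0.01. A difference in the response of either gene was therefore not resolved at this depth. The median over the 25 factors was -0.38, against 0.24 for all tested genes, and 0.31 without wild-type sham replicate 3.

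Other genes of translation were described from lists. Of 8 tested regulators of cap-dependent initiation and poly(A) binding outside the family, none was called in any comparison. In wild type 4 were positive and 4 negative, and in deficient cells all 8 were positive. Pabpc1, the poly(A)-binding protein that joins both ends of the messenger RNA, stood at 20.8, 40.4 and 51.4 in wild-type sham and at 116, 90.9 and 45.6 in wild-type imiquimod. Replicate 3 of imiquimod lay within the sham range, and the change was 1.14 ± 0.45 (limma adjusted p = 0.133). Larp1, a repressor of translation factor messenger RNAs, stood at 5.51, 2.19 and 0 in deficient sham and at 16.0, 13.3 and 14.3 in deficient imiquimod, without overlap (2.49 ± 1.02, adjusted p = 0.996). Of 3 tested termination and recycling genes, Gspt1, the release factor eRF3, stood at 1.12, 2.20 and 1.24 in wild-type sham and at 13.6, 12.6 and 23.8 in wild-type imiquimod. These groups did not overlap, and the change of 2.78 ± 1.16 was not called (adjusted p = 0.151). None of 4 tested eIF2 kinase and stress response genes, of 4 aminoacyl-tRNA synthetase genes or of 2 mTORC1 pathway genes was called in either imiquimod comparison. Ddit4, an inhibitor of mTORC1, had the lowest p-value of the stress genes in wild type, at -2.27 ± 1.14 (adjusted p = 0.248).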

How the data were processed

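The authors deposited log2 normalized read counts of 45796 genes in 12 libraries. Libraries were QuantSeq 3' FWD from Trizol RNA, per the labels' protocols, and per the submitters' processing notes the build was mm10. The aligner, counter, annotation and normalization method were not given in the sources used here. Values were taken back to the linear scale, with log2 values at or below 0 set to 0. Under 20 reads, 71.0% to 80.3% lay within 0.01 of a whole read, too few to recover reads, so no count test was run. Genes with a mean of at least 5 were tested with limma 3.58.1 (R 4.3.3) on log2(value + 1), with trend and robust, in 1 fit of 4 groups (8 residual degrees of freedom), Benjamini-Hochberg over 1571 genes. The spread shared over genes entered with a median of 145 prior degrees of freedom, against the 8 residual ones. An SE therefore rests mostly on genes of similar level and little on the gene's own libraries. Adding 1 understates the change of low genes. The median SE of a factor's fold change was 1.06. The test was run on simulated data first. Values in every library are given for factors with an unadjusted p under 0.05 and the 8 most abundant; others were named as examples after their values were seen. Members and lists were chosen with earlier results of these data known. Coordinates and promoters are from RefSeq (GRCm38.p6), matched for 63 and 48 factors. Alternatives were the pseudocount, filter, scaling, moderation, replicate block and leaving out each library. Python 3.11.15 with pandas 2.3.3, numpy 2.4.6 and matplotlib 3.10.9 was used.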

Additional observations from a re-analysis of the deposited data

How the results depend on the processing

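At 20507 to 69454 implied reads per library, the 95% interval of a tested factor's wild-type change reached 2.09 (median) to either side. In wild type 2 factors were called, 1 with a pseudocount of 0.1, with equal totals or with only the libraries compared, and 0 without a filter, with quantile normalization or without trend and robust; leaving out single libraries gave 0 to 2. Called genes there were 51, but 26 with a pseudocount of 0.1, 11 without a filter, 18 without trend and robust and 28 with only the libraries compared, and 26 to 73 without single libraries. With equal totals the median of all tested genes in wild type moved from -0.07 to -0.25, and genes called higher and lower from 26 and 25 to 19 and 29; with a pseudocount of 10 they were 47 and 25. The median of the factors (0.87) was 0.48 with a pseudocount of 10, 0.40 without a filter, 0.50 with quantile normalization and 0.41 to 1.12 without single libraries. Factors without overlap went from 5 to 3 with quantile normalization, an alternative chosen after seeing the data, and in the sham comparison of genotypes from 1 to 3; in the imiquimod comparison of genotypes 4 lower and 0 higher became 2 and 1 with equal totals and 3 and 2 with quantile normalization.

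In deficient cells 1 gene was called with quantile normalization and 1 with only the libraries compared, neither a factor; the median of the factors (0.56) was 0.26 with a pseudocount of 10, 0.38 without a filter and 0.32 to 0.69 without single libraries. Between genotypes with sham, 0 to 1 genes were called without single libraries, and the median of the factors was 0.27 at a mean of at least 20 and -0.45 to 0.055 without single libraries. With imiquimod, called genes (28) were 18 with a pseudocount of 0.1, 3 without a filter, 0 without trend and robust and 4 to 42 without single libraries, and the median of the factors was 0.028 at a mean of at least 20. Genes with a called interaction (7) were 1 without a filter, 13 at a mean of at least 20, 0 without trend and robust and 2 to 12 without single libraries; the median of the factors was 0.036 with quantile normalization and -0.65 to 0.31 without single libraries. No factor was called outside the wild-type imiquimod comparison under any alternative run.

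Some wild-type imiquimod changes turned sign. Eef1b2 was at -0.10 with equal totals and -0.23 with quantile normalization (-0.31 to 0.28 without single libraries). Eef1d was at 0.48 with a pseudocount of 10 and 0.046 with quantile normalization (-1.29 to 1.75). Eef2 was at -0.085 and -0.30 with equal totals and quantile normalization (-0.33 to 0.39), and in deficient cells at -0.13 to 1.08. Eif3a between genotypes with sham ran from -0.38 to 1.16 without single libraries. The cause of these moves was not tested. Deviations of same-numbered libraries were hardly correlated (median 0.0164, highest 0.0609, against a median of -0.00386 for other pairs). At this depth the check cannot tell whether same-numbered libraries were prepared together. With the replicate block the called factors stayed 2 (Eef1a1 adjusted p = 0.0157, Eif3a 0.0254), and called genes were 55 in wild type, 32 between genotypes with imiquimod, 7 for the interaction and 0 otherwise.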
